A study of Zea mays with 54 samples.

Results

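Elongation factor 1-alpha (EF1-alpha) is represented by 104 spots on the 3 cDNA array designs of this maize study, among 49280 spots in all. A spot was taken where its single annotated gene was EF1-A, elfa2 or another gene whose symbol is elfa followed by digits. This gave 46 spots of EF1-A, 41 of elfa2, 15 of elfa3 and 2 of elfa5, 4 genes of the 866 named on the arrays, and no spot of elfa7. Values were present for 102 of the 104 spots, and both spots without values belonged to elfa2. The genes were chosen by their layer differences in these data, in which some EF1-A spots differed between meristem layers while most did not, so those differences are given as a description.

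Every sample came from the inbred line B73 at 14 days of age and was taken from the vegetative shoot apical meristem (SAM). The L1, the single outer layer that forms the epidermis, was cut by laser microdissection and set against the L2, which the labels call the corpus. Per the labels, 5 to 10 SAMs were pooled for each biological replicate, and about 1 ng of RNA was amplified before the layers were labelled with Cy3 and Cy5 and hybridised to the same slide. Each array design had 6 slides, 3 with L1 in Cy3 (odd numbers) and 3 with L1 in Cy5 (even numbers), and the deposited columns hold 3 readings of a slide, lettered L, M and H. What the letters stand for is not given in the sources. There was no untreated or mutant group, and the L2 on the same slide is the only comparator.

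EF1-alpha is a GTP-binding protein that carries aminoacyl-tRNA to the ribosome during translation, and it is among the most abundant proteins of plant cells. It also binds actin filaments, and plants encode it in small gene families whose members have very similar coding sequences. In RefSeq, elfa3 and elfa2 lie next to each other with 0 protein-coding genes between them, and 16 such genes lie between elfa2 and elfa5. A spotted cDNA can therefore take up transcripts of more than 1 family member, and which transcripts each spot bound was not tested. The sequences of the spotted clones were not used here.

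All values are log ratios whose base no source states, so differences are in log units, and folds are given at base 2 and for the natural logarithm. A positive value stands for more transcript in L1. That direction is likely rather than stated, because it was read from the markers and from the dye exchange. Slides of opposite orientation had a median correlation over all spots of 0.026 on slides 1 to 6, where only 3 of 9 pairs were below 0. The medians were -0.16 and -0.16 on slides 7 to 12 and 13 to 18, with 7 of 9 pairs below 0 on each. The epidermal marker ocl1, an outer cell layer homeobox gene, was at 0.90 and 1.00 on the 2 spots of slides 1 to 6, 0.93 on slides 7 to 12 and 1.00 on slides 13 to 18. The corpus marker kn1, a homeobox gene of the meristem, ran from -1.26 to -0.37 on its 3 spots of slides 1 to 6, and was -1.72 and -0.27 on slides 7 to 12. The kn1 spots of slides 13 to 18 were at -1.56, -0.26 and 0.02. Over the 3 designs, 8 of 10 spots of the epidermal ocl genes were called higher in L1 and 5 of 8 kn1 spots lower. The ocl spots ran from -0.15 to 2.65. Not called were ocl4 spot 12184 on slides 1 to 6, at 0.18, and ocl3 spot 3789 on slides 7 to 12. This ocl3 spot was at -0.15, with 5 of 6 slides below 0. Markers of lateral organ founder cells (yabby15, yab9 and yab14) moved with L1, with 5 of 9 spots called higher and values from 0.27 to 2.12. Their part in the EF1-alpha values was not tested.

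The EF1-A spots fell into a small set that was far higher in L1 and a large set near 0. Above 0.5 log units were 3 of 24 spots in the design of slides 1 to 6. There was 1 of 8 in that of slides 7 to 12, and slides 13 to 18 had 4 of 14. The limit of 0.5 was set after the values were seen, in a gap of each design, so the split has no test. On slides 1 to 6 the lowest spot above it, EF1-A spot 5293, was at 0.85, and the next below it, EF1-A spot 1298, at 0.24. Slides 7 to 12 had 1.37 (EF1-A spot 13773) and 0.0045 (EF1-A spot 11353) on either side. Slides 13 to 18 had 0.60 (EF1-A spot 2435) and 0.067 (EF1-A spot 14476). No elfa2, elfa3 or elfa5 spot exceeded 0.5.

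**Figure D1:**
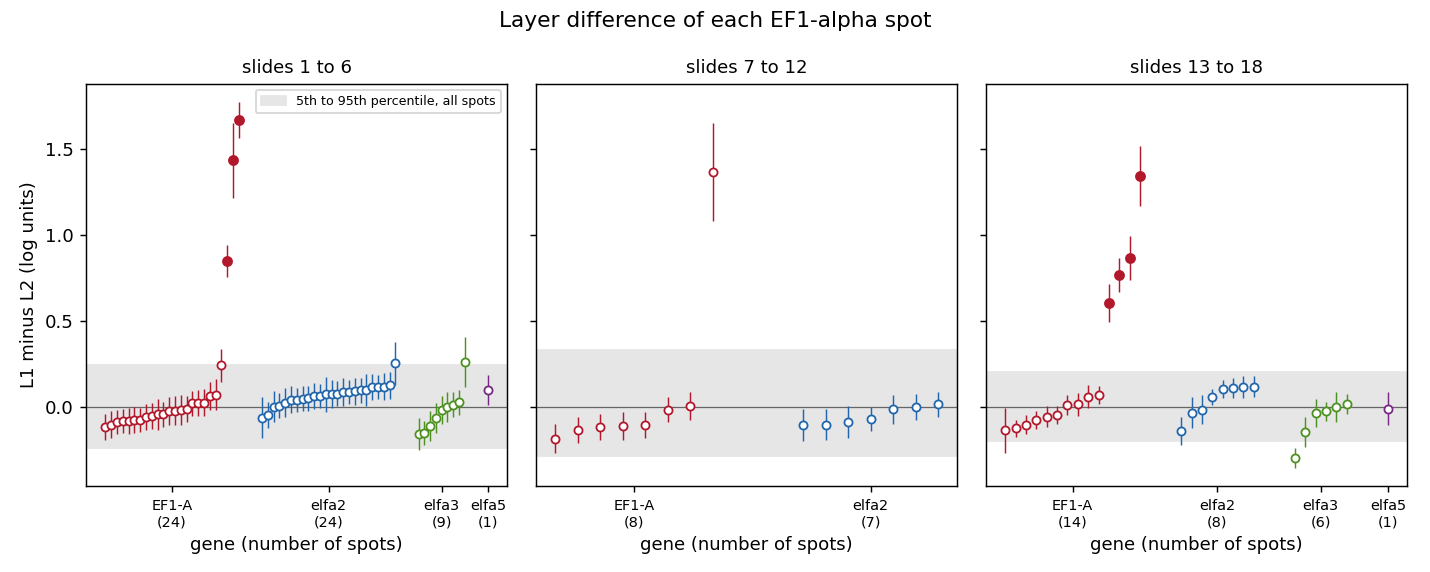
Layer difference (L1 minus L2, log units) of each of the 102 EF1-alpha spots with values, ordered within gene, for each array design; bars are limma standard errors (n = 6 slides), filled points passed the adjusted threshold over all spots, and grey marks the 5th to 95th percentile of all spots. 8 EF1-A spots stand between 0.60 and 1.67, and the other EF1-alpha spots lie between -0.30 and 0.26.

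On slides 1 to 6, EF1-A spot 5974 had a lowest slide value of 1.01, a median of 1.53 and a highest of 2.52. Slides 1 and 2, and slides 5 and 6, share an L2 extract number, so 4 L2 extract numbers stand behind the 6 slides of this design. All 6 slides were above 0, and the fitted difference was 1.67 ± 0.105 (SE, n = 6 slides), a fold of 3.18 at base 2 and 5.30 for the natural logarithm. EF1-A spot 2751 ran from 0.49 through a median of 1.56 to 2.23, with a fitted difference of 1.43 ± 0.219, or 2.70-fold and 4.19-fold. Its slides parted, with slides 1 and 6 near the bottom of the range and the other 4 above 1.5. EF1-A spot 5293 was lower and more even, from 0.59 through 0.77 to 1.18, with a fitted difference of 0.85 ± 0.0938 (1.80-fold and 2.33-fold).

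On slides 7 to 12, EF1-A spot 13773 ran from 0.14 through a median of 1.31 to 2.57, the widest span of any EF1-alpha spot on that design. Every slide was above 0, and the fitted difference was 1.37 ± 0.285 (2.58-fold and 3.92-fold). Slide 7 held the lowest value and was below the mean of the elfa2 spots there, 0.27.

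EF1-A spot 5658 on slides 13 to 18 ran from 0.86 through 1.22 to 2.02 and had a fitted difference of 1.34 ± 0.174 (2.53-fold and 3.82-fold). EF1-A spot 8972 ran from 0.39 through 0.90 to 1.27, with a difference of 0.86 ± 0.128. EF1-A spot 13606 ran from 0.38 through 0.77 to 1.33, with a difference of 0.77 ± 0.0983. The smallest of the 4, EF1-A spot 2435, ran from 0.20 through 0.51 to 1.08, with a difference of 0.60 ± 0.108. Each of the 4 was above 0 on all 6 slides.

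**Figure D2:**
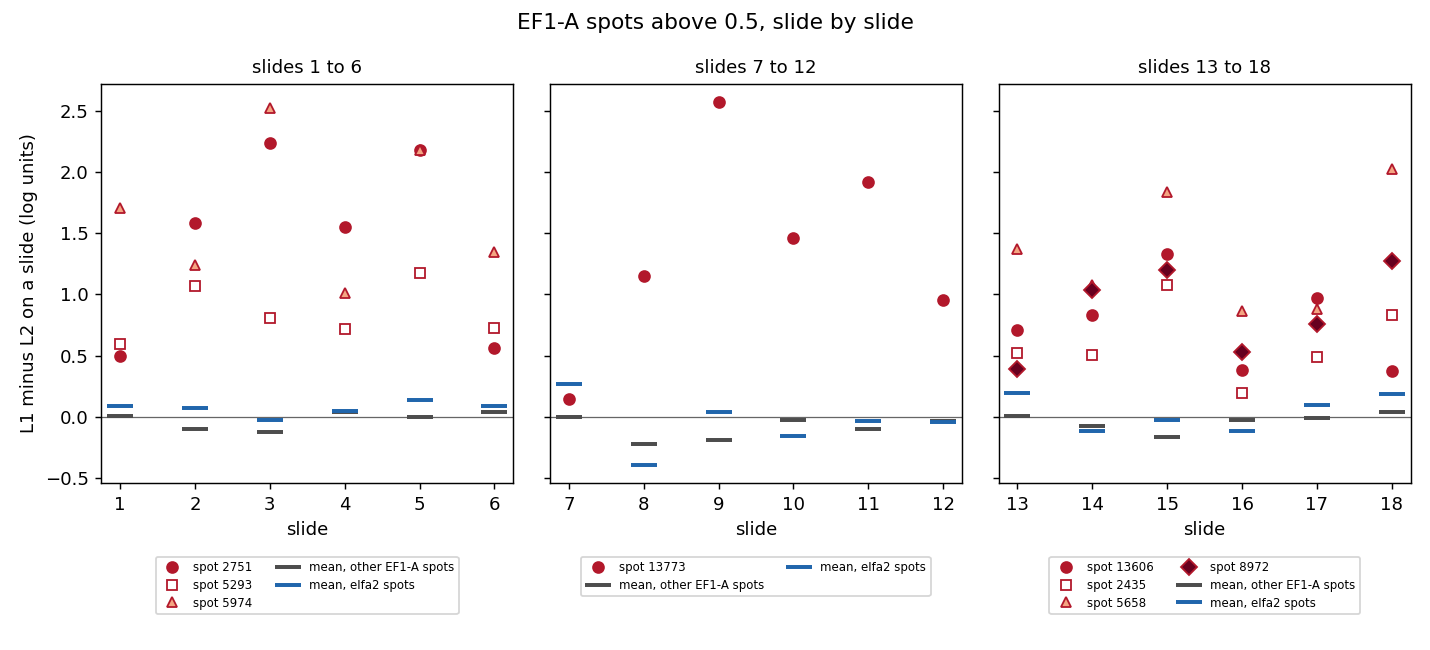
L1 minus L2 (log units) on every slide for the 8 EF1-A spots above 0.5 (symbols), with the mean of the other EF1-A spots (grey bars) and of the elfa2 spots (blue bars) on the same slide. The 8 spots are above 0 on every slide, and both means stay between -0.40 and 0.27.

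The remaining EF1-A spots lay close to 0 in the same hybridisations. On slides 1 to 6, 21 spots ran from -0.12 to 0.24 with a median of -0.044, and 6 of them were above 0. On slides 7 to 12, 7 spots ran from -0.19 to 0.0045 with a median of -0.11. The 10 spots of slides 13 to 18 ran from -0.14 to 0.067 with a median of -0.052. The 95% intervals of these spots reached no farther than 0.455, 0.378 and 0.445 log units from 0 on the 3 designs, which is the size of difference they leave room for.

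The spots nearest the EF1-A median show this level slide by slide. EF1-A spot 4473 on slides 1 to 6 ran from -0.30 through 0.028 to 0.27, with 3 slides above 0 and a fitted difference of -0.023 ± 0.0818. EF1-A spot 13292 on slides 7 to 12 ran from -0.44 through -0.069 to 0.067, with a difference of -0.11 ± 0.0823. EF1-A spot 11084 on slides 13 to 18 ran from -0.12 through -0.021 to 0.20, with a difference of 0.013 ± 0.0648. Each of the 3 had slides on both sides of 0. The lowest EF1-A spots were 10989 at -0.12 ± 0.0747, 5023 at -0.19 ± 0.0817 and 9434 at -0.14 ± 0.131 on the 3 designs in turn.

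The mean and the median of EF1-A parted. The mean over EF1-A spots was 0.14, 0.086 and 0.23 on the 3 designs, while the medians were -0.023, -0.11 and 0.011. The median over all EF1-alpha spots was 0.022 (58 spots), -0.090 (15) and -0.0027 (29), against -0.0017, -0.016 and 0.00025 over all spots of each design. The spots of a gene share slides and extracts, so their number adds no replicates.

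The elfa2 spots were narrow around their medians. On slides 1 to 6, 24 spots ran from -0.065 to 0.25 with a median of 0.073, and 22 of them were above 0. Spot 9370, at that median, ran from -0.26 through 0.11 to 0.42 over the slides and had a fitted difference of 0.072 ± 0.103, so its slides lay on both sides of 0. The lowest, elfa2 spot 7606, was at -0.065 ± 0.118, with 1 slide above 0. The 7 spots of slides 7 to 12 had a median of -0.071, and 1 was above 0. There elfa2 spot 10131, at the median, ran over the slides from -0.30 through -0.068 to 0.18, and the lowest spot, 11306, was at -0.11 ± 0.0944. The 8 spots of slides 13 to 18 had a median of 0.080, and 5 were above 0. Nearest to it was elfa2 spot 3437, which ran from -0.070 through 0.063 to 0.21 with a difference of 0.055 ± 0.0475. The lowest, elfa2 spot 4573, was at -0.14 ± 0.0798. The sign of the elfa2 median thus differed between designs.

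The 9 elfa3 spots of slides 1 to 6 had a median of -0.019 and the 6 of slides 13 to 18 a median of -0.031. The spots nearest these medians, elfa3 spots 6542 and 14117, were at -0.019 ± 0.0828 and -0.028 ± 0.0572, with slides on both sides of 0. The lowest on slides 1 to 6, elfa3 spot 14335, was at -0.16 ± 0.0923. The highest, elfa3 spot 8221, was at 0.26 ± 0.146, with slides from -0.54 to 1.41, a range wider than that of the other elfa3 spots. Slide 4 gave the value of 1.41 and slide 3 that of -0.54. The lowest of all EF1-alpha spots was elfa3 spot 11100 on slides 13 to 18, whose slides ran from -0.44 through -0.34 to -0.11. It was below 0 on all 6 slides, with a fitted difference of -0.30 ± 0.0595. The elfa5 spots, 1 on each of these designs, were at 0.095 ± 0.0865 and -0.013 ± 0.0965.

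On slides 1 to 6, 4 more spots were annotated to several genes including an EF1-alpha gene and were left out of the counts. Their differences were 0.02, 0.06, 0.09 and 0.15.

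The counts of calls are given for completeness, since this contrast chose the genes. With limma and Benjamini-Hochberg adjustment over all spots of a design, 3 of 58 EF1-alpha spots were called higher in L1 on slides 1 to 6, where 1.5% of all 14401 spots were. On slides 7 to 12 none of 15 was, against 0.89% of 8991 spots, and 1 of the 15 had an unadjusted p under 0.05. The count on slides 13 to 18 was 4 of 29, against 1.02% of 14270. All called spots were EF1-A spots above 0.5, and no EF1-alpha spot was called lower. In either direction 2.84%, 1.43% and 1.57% of all spots were called.

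The spread between the spots of a gene was compared over genes with 8 or more spots on a design. EF1-A was chosen because some of its spots differed between layers while most did not, so a high rank follows from that choice. On slides 1 to 6 the SD between EF1-A spots was 0.475, second to AGP2 at 0.510 among 30 such genes. There elfa2, with as many spots (24), ranked 25th at 0.0628. The 9 spots of AGP2 ran from -1.23 to 0.076 around a median of -0.80, and 6 of them were called lower in L1. In EF1-A the median stood near 0 and 3 spots stood away from it. Other genes of this design also had 1 spot called higher in L1 and a median nearer 0. Their highest spots were at 0.59 in CaM1 (median 0.14), 0.43 in gpc2 (median -0.020) and 0.43 in uaz7c01b01 (median 0.0019). The SD of EF1-A on slides 13 to 18 was 0.467, the largest of 6 genes, and HRGP followed at 0.122. EF1-A, at 0.521, was the only gene with as many spots on slides 7 to 12.

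**Figure D3:**
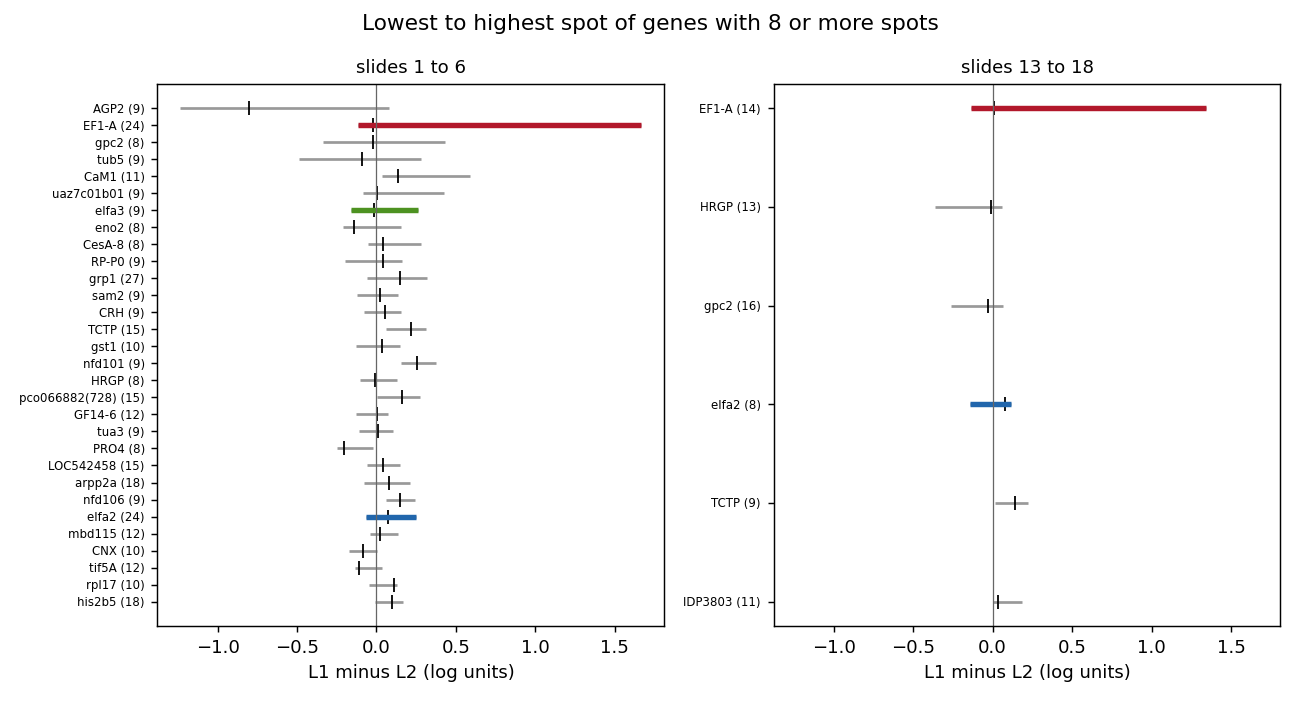
Lowest to highest spot (line) and median spot (tick) of L1 minus L2 in log units for each gene with 8 or more spots, on slides 1 to 6 (30 genes) and 13 to 18 (6 genes), ordered by the SD between spots; the number of spots is in brackets. EF1-A (red) reaches 1.67 and 1.34, elfa2 (blue) 0.25 and 0.12, and elfa3 (green) 0.26.

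There were 3 EF1-A clones spotted on both slides 1 to 6 and slides 13 to 18, and each kept their side of the split. The first was at 1.67 ± 0.105 as spot 5974 and at 1.34 ± 0.174 as spot 5658. The second was at -0.045 ± 0.0890 as spot 6378 and at -0.10 ± 0.0527 as spot 6022. The last was at 1.43 ± 0.219 as spot 2751 and at 0.60 ± 0.108 as spot 2435. The 95% intervals of this last clone, 0.945 to 1.92 and 0.349 to 0.856, did not overlap. That difference between designs was not tested. L1 extract numbers 1 to 5 recur on both designs, while slides 6 and 18 carry L1 extracts of other numbers and the L2 partners of slides 1 and 5 differ from those of slides 13 and 17. The designs therefore cannot be taken as independent sets of plants.

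**Figure D4:**
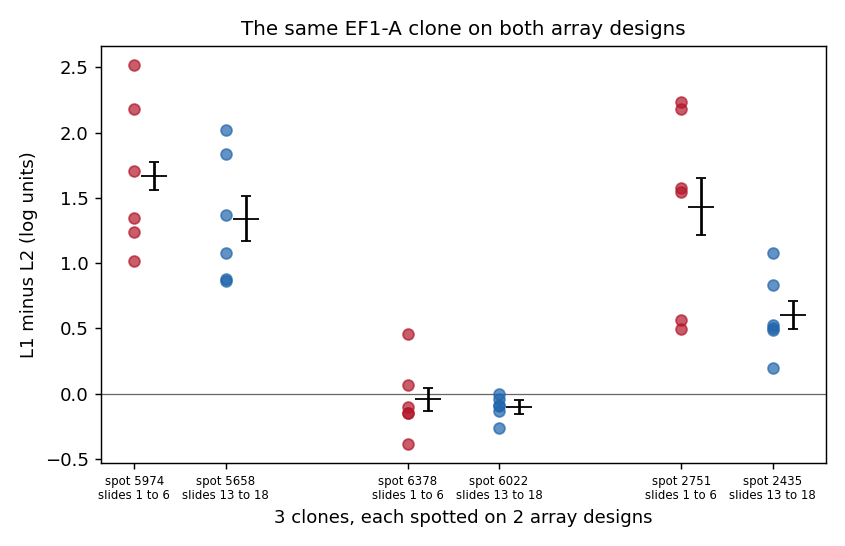
L1 minus L2 (log units) on each slide (points) for 3 EF1-A clones present on 2 array designs, with the fitted difference and its standard error beside them (black; n = 6 slides). The clones at the left and right are above 0 on all slides of both designs, and the middle clone is close to 0 on both.

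The spots also differed in how much the slides varied. The SD between slides had a median of 0.584 over the 3 EF1-A spots above 0.5 and of 0.187 over the other 21 on slides 1 to 6. Slides 7 to 12 gave 0.834 (1 spot) and 0.157 (7 spots) for the same sets, and slides 13 to 18 gave 0.364 and 0.129. Wide variation was shared by other spots of that size: all spots above 0.5 had median slide SDs of 0.352 (161 spots), 0.474 (167) and 0.318 (127).

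The slide values were set side by side by L1 extract number. On slides 7 to 18 the L1 and L2 extracts of a slide have the same number, and extracts 1 to 4 keep their dye on all designs, so L1 extract, L2 extract and dye cannot be told apart here. The highest mean of the EF1-A spots above 0.5 among the 5 recurring L1 extracts belonged to extract 3 on all 3 designs, at 1.85, 2.57 and 1.36. Extract 1 gave 0.93, 0.14 and 0.75, the lowest of the 5 on slides 1 to 6 and 7 to 12. Extract 2 gave 1.30, 1.15 and 0.86. Extracts 4 and 5 changed places between designs, with 1.09, 1.46 and 0.49 for extract 4 and 1.85, 0.95 and 0.77 for extract 5. The first value of extract 5 is from slide 5, where its L2 partner was number 6 rather than 5. On the slides of extract 3 the other EF1-A spots had means of -0.13, -0.19 and -0.17, where the spots above 0.5 were high.

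Over the 6 slides of a design, pairs of EF1-A spots above 0.5 had a median Pearson r of 0.53 on slides 1 to 6 (3 pairs) and 0.61 on slides 13 to 18 (6 pairs). Pairs of such a spot with another EF1-A spot had medians of -0.26, -0.20 and -0.29 on the 3 designs. Pairs among the other EF1-A spots had medians of 0.096, 0.33 and 0.12. These values describe spots that share slides and extracts.

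The deposited annotation gave few other features by which the spots could be told apart. Of the EF1-A spots on slides 1 to 6, 13 listed 2 sequence reads of the clone and 11 listed 1. Of the 3 spots above 0.5, 1 listed 2 reads and 2 listed 1. On the other designs every EF1-A spot listed 1 read.

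The dye term, which the choice of genes did not use, and the change between readings were tested. The change between readings is formed from the layer ratios whose mean led to the choice, so it is not independent of it. The dye term (Cy5 minus Cy3 at equal layers) passed an adjusted p of 0.05 for 2 of 58 EF1-alpha spots on slides 1 to 6, where it did for 2.88% of all spots. It did so for none on slides 7 to 12 (0.0111% of all spots) and none on slides 13 to 18 (0% of all spots). At an unadjusted p under 0.05 there were 10, 2 and 1 EF1-alpha spots of 58, 15 and 29, against 25.2%, 8.04% and 6.66% of all spots. As another measure, limma with a robust variance prior called 399, 1 and 0 of all spots. The 2 called were EF1-A spot 5974 at -0.47 ± 0.105 (limma adjusted p = 0.0472) and elfa2 spot 2907 at 0.36 ± 0.0810 (limma adjusted p = 0.0470). For EF1-A spot 5974 the slides with L1 in Cy3 were at 1.70, 2.52 and 2.18 and those with L1 in Cy5 at 1.24, 1.01 and 1.35. The 2 orientations did not overlap, and both were far above 0. The dye terms of the other 7 EF1-A spots above 0.5 ran from -0.24 to 0.081.

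**Figure D5:**
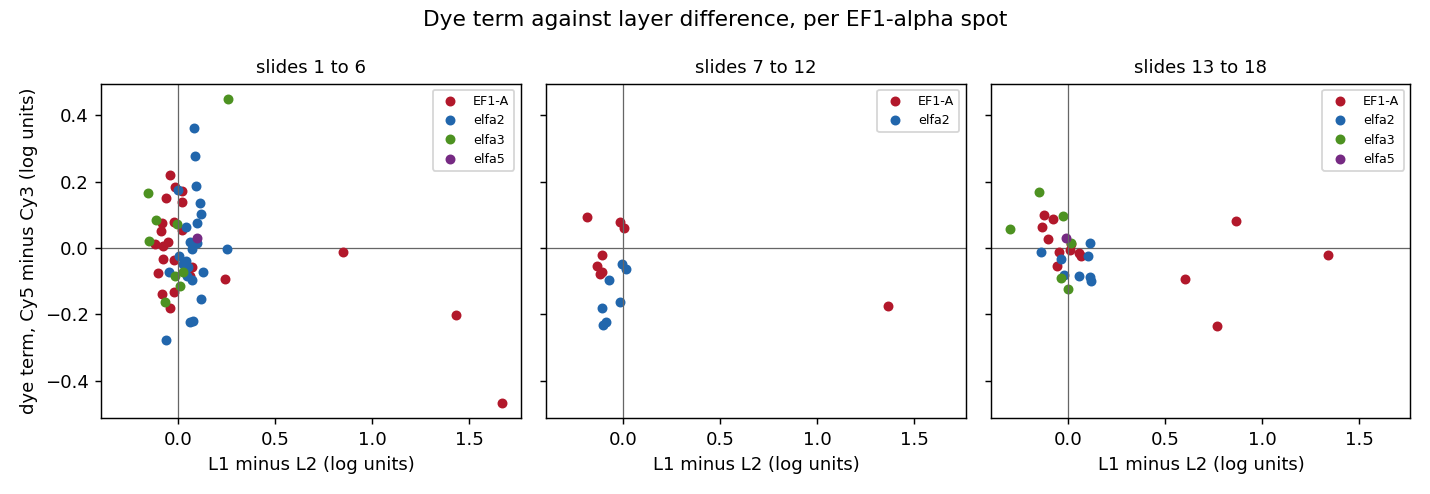
Dye term (Cy5 minus Cy3, log units) against layer difference (L1 minus L2, log units) of each EF1-alpha spot, coloured by gene, for each array design. EF1-A spot 5974 has the largest layer difference and a dye term of -0.47, and the other EF1-A spots above 0.5 have dye terms between -0.24 and 0.081.

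The second measure was the change of the layer difference between the H and L readings of a slide. It was called for no EF1-alpha spot on any design, against 0.00694%, 0% and 0% of all spots. At an unadjusted p under 0.05 there were 4, 2 and 3 EF1-alpha spots, against 5.29%, 5.42% and 4.95% of all spots. On slides 1 to 6 these held all 3 EF1-A spots above 0.5 and 0 of the other 21 EF1-A spots. The split at 0.5 was made on the mean of the same readings, so these counts are a description and have no test. The changes of the 3 were -0.50 (spot 5974), -0.35 (2751) and -0.12 (5293). Of the EF1-A spots above 0.5, slides 7 to 12 had 0 of 1 at that level and slides 13 to 18 had 1 of 4. The robust prior called 1, 0 and 0 of all spots. EF1-A spot 5974 had layer differences of 1.98, 1.55 and 1.48 in the L, M and H readings, and its change of -0.50 ± 0.0479 had a limma adjusted p of 0.152. EF1-A spot 8972 went the other way, with 0.60, 1.00 and 0.99, a change of 0.39 ± 0.132 (limma adjusted p = 0.954). EF1-A spot 13773 was even across readings at 1.32, 1.40 and 1.37. Each EF1-A spot above 0.5 stayed above 0.5 in all 3 readings.

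Other genes of translation were read from lists matched by gene symbol, beside 14.8%, 13.8% and 12.9% of all spots at an unadjusted p under 0.05 in the layer fit of the 3 designs. The translation initiation factors had no spot called in either direction among 43, 13 and 19 spots, with medians of -0.070, 0.028 and -0.0014 and 4, 1 and 1 spots at an unadjusted p under 0.05. The ribosomal proteins were matched by symbol alone, and whether all of them are cytosolic was not checked. They had none called among 74, 24 and 36 spots, with medians of 0.073, -0.015 and 0.060. Of these spots, 9, 1 and 4 had an unadjusted p under 0.05. Their lowest spot, arpp2a spot 6547 on slides 7 to 12, an acidic ribosomal protein, was at -1.05 ± 0.297 (limma adjusted p = 0.197). The glyceraldehyde-3-phosphate dehydrogenase genes GPC1 (gpc1), gpc2 and gpc3, glycolytic genes often used as references, had medians of -0.066, -0.11 and -0.045 over 20, 3 and 19 spots. Of these, gpc2 spot 2200 on slides 1 to 6 was higher in L1, at 0.43 ± 0.0741 (limma adjusted p = 0.0121), and no other was called. At an unadjusted p under 0.05 there were 7, 0 and 3 spots. All 6 GPC1 spots of slides 1 to 6 were below 0, from -0.33 to -0.049, as were 4 of 8 gpc2 and 3 of 6 gpc3 spots.

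Among 212 genes measured on all 3 designs, the likeness of each gene's mean slide values to those of EF1-A was ranked by Pearson r. It was taken over the 18 slides, which share extract numbers. The spots behind each mean differ between designs, so offsets between designs enter r, and their part was not tested. The closest were cgs1 (r = 0.75), rws1 (0.69), lip15 (0.55), pco107502b (0.55) and arpp2a (0.54), and elfa2 ranked 21st (0.42). Spearman rho was lower for cgs1 (0.48), rws1 (0.48), lip15 (0.35), pco107502b (0.27) and elfa2 (0.34), and was 0.57 for arpp2a. For the EF1-A spots below 0.5 alone, elfa2 ranked 8th with r = 0.61, behind PER42 (0.71), CNX (0.68), cys2 (0.67), RPS21 (0.65) and lg3 (0.65) among others. Here rho was 0.63 for elfa2 and from 0.67 (lg3) to 0.76 (cys2) for the named genes ahead of it. For the spots above 0.5, GLN6 came first (r = 0.62, rho = 0.32), and elfa2 stood at -0.18 (rho = -0.30). The L1 marker ocl1 and the corpus marker kn1 were both negative there, at r of -0.29 and -0.56, against 0.62 and 0.54 for the spots below 0.5. Their rho was -0.38 and -0.64, against 0.38 and 0.45. These splits were made after the values were seen.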

How the data were processed

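L1 and L2 RNA of the maize SAM was compared on 18 two-colour cDNA slides, 6 per array design, each read 3 times. The authors deposited 1 log ratio (other unit, base unstated) per spot and reading; their scanner settings, background correction and normalization are not given in the sources. Spots had a value in every column or in none. The 3 readings were averaged for each slide, so a slide counted as 1 replicate, and turned by dye orientation. The labels do not say that numbered extracts came from separate plantings, and slides of different designs share extract numbers. Slides 1 and 5 pair L1 and L2 extracts of different numbers. The number of slides limits the precision.

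For each design, limma 3.58.1 in R 4.3.3 modelled layer and dye for every spot, with Benjamini-Hochberg adjustment over all spots and a threshold of 0.05, and was tested on simulated data. Figures used Python 3.11.15 and matplotlib 3.10.9. Symbols came from the array annotation and from RefSeq (Zm-B73-REFERENCE-NAM-5.0), used for names and neighbours only. That table holds no gene descriptions, so lists planned by description were matched on symbols and synonyms. No spot matched the lists of actin and other elongation factors.

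The members and lists were chosen with earlier results of these data known. Values are given for each spot called in the layer fit, the spot nearest its gene's median and the lowest spot, for the other EF1-A spot above 0.5, and for list genes that were called. EF1-A spots 1298, 11353 and 14476, elfa3 spot 8221 and arpp2a spot 6547 were added after their values were seen. Alternatives varied the readings, the dye term, scaling, variance prior and slides.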

Additional observations from a re-analysis of the deposited data

Results flagged for a closer look

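Of 37 series of 6 slides tested for a slide far from the rest, 1 had such a slide. It was elfa2 spot 7606 on slides 1 to 6, where slide 5 was at 0.8017 and the other 5 slides lay between -0.46 and -0.06, a gap larger than Dixon's 95% critical value for 6 samples. Chance marks about 1 in 20 such series. The fitted difference of this spot was -0.065 ± 0.118, and slide 5 is 1 of the 2 slides whose L1 and L2 extract numbers differ.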

How the results depend on the processing

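The 3 EF1-A spots above 0.5 on slides 1 to 6 were called in 17 of 17 settings, with differences from 1.48 to 1.98 (spot 5974), 1.28 to 1.73 (2751) and 0.77 to 0.91 (5293). On slides 13 to 18 the 4 called EF1-alpha spots became 0 with the L reading alone and 2 with the H reading alone, and from 0 to 3 without 1 slide. There spots 5658, 8972, 13606 and 2435 were called in 11, 10, 11 and 3 of 15 settings. On slides 7 to 12 the count was 0, and 0 to 1 without 1 slide (1 without slide 7, EF1-A spot 13773). All 8 spots stayed above 0.5 in every setting. The setting that kept only spots with values on every slide is counted here but repeats the main fit. It is 1 of the 3 settings in which spot 2435 was called. The 17 settings of slides 1 to 6 also hold the random block described below, which cannot show the effect of the shared extracts. The 2 spots called for dye on slides 1 to 6 became 1 with quantile normalization and 0 to 3 without 1 slide. The median over EF1-alpha spots on slides 1 to 6, 0.022, became -0.0339 without slides 1 and 5.

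Over all spots, 409 were called on slides 1 to 6, against 261 with the L reading, 258 with no dye term, 78 without slides 1 and 5, and 211 to 417 without 1 slide. On slides 7 to 12, 129 became 82 (L reading), 76 (H reading) and 38 to 65 without 1 slide. On slides 13 to 18, 224 became 79 (L reading) and 88 to 231 without 1 slide. The cause of these shifts was not tested. Fits that leave slides out also hold fewer slides, while those on a single reading keep all of them. No other count of calls moved by over 1.5 times. Averaging spots of 1 clone first could not be run, since no clone was listed on more than 1 spot of a design. With slides that share an L2 extract number as a random block, 577 of all spots and the same number of EF1-alpha spots, 3, were called on slides 1 to 6. The slides that share a number have opposite dye orientation, and the block was fitted to ratios before turning. A shared L2 deviation then enters those slides with opposite signs, so this setting cannot show the effect of the shared extracts. The layer fit already pairs L1 with L2, since each value is their ratio on the same slide. No other paired analysis was run.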
